A study of Mus musculus with 6 samples.

Results

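The histone genes of the mouse were compared between cardiomyocytes carrying the Uty gene trap and their wild-type (WT) counterparts. The members were all protein-coding genes named as part of the Hist1, Hist2, Hist3 and Hist4 clusters, called replication-dependent here by their name, together with the replacement (variant) genes H2afx, H2afy, H2afz, H3f3a, H3f3b and H1f0. This gave 73 of the 54232 genes in the table, of which 67 were replication-dependent and 6 were variant; 3 pseudogenes with names of the same kind were left out. Gene-trap cells came from adult male mice with the allele UtyGt(XS0378)Wtsi, in which a splice acceptor in intron 4 interrupts Uty, a Y-linked gene of the same family as the X-linked histone demethylase gene Kdm6a. WT cells came from adult male mice of the isogenic strain C57BL/6.Y<129P2>, so that both strains carried a Y chromosome of 129P2/OlaHsd origin on a C57BL/6J background. The gene trap was 1 embryonic stem cell line, and in these libraries the neighbouring Y gene Ddx3y was also lower, at 298 ± 127 normalized counts in gene-trap cells and 2276 ± 80.7 in WT cells (SD, n = 3 each). The paper also reports more RNA of Eif2s3y, a further neighbouring Y gene, in cardiomyocytes with the gene trap. Effects of Uty and of these neighbours cannot be told apart. Hearts were digested with collagenase, the myocytes were plated on laminin, and RNA was taken 4 h later from 3 separate isolations per strain, named d, e and f for the gene trap and e, f and g for WT.

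Nucleosomes hold DNA around a core of the histones H2A, H2B, H3 and H4, and the linker histone H1 binds where the DNA enters and leaves. Replication-dependent genes supply this protein during S phase, and most of their mRNAs end in a conserved stem-loop bound by the protein SLBP in place of a poly(A) tail. Variant genes are transcribed outside S phase as well, give polyadenylated mRNA and supply the histones that are exchanged in cells that no longer divide, as most adult cardiomyocytes do.

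The labels describe ribosomal RNA depletion followed by a stranded RNA kit, while the text of the study names a stranded mRNA kit for these cells. Which of the 2 was used bears on how much RNA without a poly(A) tail was read, so levels of replication-dependent and variant genes are not compared as measures of transcription. Depth was between 28283654 and 48377453 reads per library, and 1 read was worth between 0.662 and 1.25 normalized counts. Uty itself was at 10.8 ± 2.94 normalized counts in gene-trap cells and 996 ± 109 in WT cells (SD, n = 3 each), which fits the labels. Mitochondrial genes took 39.8 to 44.8% of reads in gene-trap libraries and 46.9 to 54.7% in WT libraries, and gene-trap library f had reads in 28619 genes, against 21615 to 22917 in the other libraries. Cardiomyocyte markers summed to between 2443510 and 2544890 normalized counts in gene-trap libraries and between 2334570 and 2405080 in WT libraries. Markers of other cells of the heart were present in every library, and several were higher in gene-trap cells. Of all genes tested, 4.56% were higher and 6.12% lower in gene-trap cells past the threshold. Among the markers, 4 of 10 tested for fibroblasts (40%) and 4 of 8 for smooth muscle and pericytes (50%) passed it. So did 2 of 10 endothelial markers (20%) and 2 of 8 myeloid markers (25%), and all of these were higher in gene-trap cells. With edgeR, 4 fibroblast, 4 smooth muscle and pericyte, 4 endothelial and 3 myeloid markers were called higher. DESeq2 called 4, 4, 5 and 0 of them higher, and neither tool called any lower. Of the 8 myeloid markers, 5 had a positive and 3 a negative limma fold change. Of 12 cardiomyocyte markers, 1 passed (8.33%), Myl3, also higher. Nppa, the gene of the atrial natriuretic peptide and another marker of that list, had 605, 5243 and 3117 normalized counts in gene-trap libraries d, e and f, against 658, 593 and 549 in WT libraries e, f and g. Gene-trap libraries e and f stood apart in it and d lay within the WT values; it did not pass with limma (adjusted p = 0.0508) and was called higher by edgeR and DESeq2. Summed fibroblast markers ranged from 5133 to 6748 normalized counts in gene-trap libraries and from 4121 to 5917 in WT libraries, and myeloid markers ranged from 418 to 513 in gene-trap libraries and from 296 to 447 in WT libraries. Endothelial markers ranged from 12444 to 20423 in gene-trap libraries, with the lowest value in library e, and from 14444 to 16462 in WT libraries, while smooth muscle markers ranged from 6666 to 10316 in gene-trap libraries and from 7638 to 8184 in WT libraries. All 10 lymphocyte markers were below the filter for testing. The part of these cells, or of what set Nppa apart, in the histone results was not tested, and in bulk RNA fewer cells of a type and less RNA per cell cannot be told apart.

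Of the 67 replication-dependent genes, 32 averaged 10 or more normalized counts in the 6 libraries and were tested, 27 had between 1 and 61 reads in all 6 libraries together and fell below that filter, and 8 had no read in any library. All 6 variant genes were tested. By type, the tested replication-dependent genes were 4 for H1, 4 for H2A, 8 for H2B, 5 for H3 and 11 for H4. The genes without reads were the H2A genes Hist1h2ah, Hist1h2ao, Hist1h2ap and Hist2h2aa1, the H2B genes Hist1h2ba, Hist1h2bq and Hist1h2br, and the H3 gene Hist2h3c1. A count of 0 still allows up to 3 reads, which is 1.98 to 3.75 normalized counts depending on the library, and this covers counting error only. Most of these genes share sequence with other annotated genes, as similar copies elsewhere or as genes that overlap them in place. Both kinds, on either strand, count in the share given next. Hist2h2aa1, for instance, is overlapped over 100% of its exon by genes on the other strand. The share of 50-base windows of the annotated exons (the length of the reads) that also occur in another annotated gene had a median of 35.7% in the tested replication-dependent genes, 60.4% in those below the filter and 93.3% in those without reads, against 8.26% in the variant genes. Among the genes without reads, Hist1h2ba, a testis gene, was the one with a low share, at 38.2%. Neither the labels nor the text of the study state how reads that fit several genes were counted, so the level of a gene with a high share is uncertain, and a level of 0 need not mean that it was silent.

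**Figure D1:**
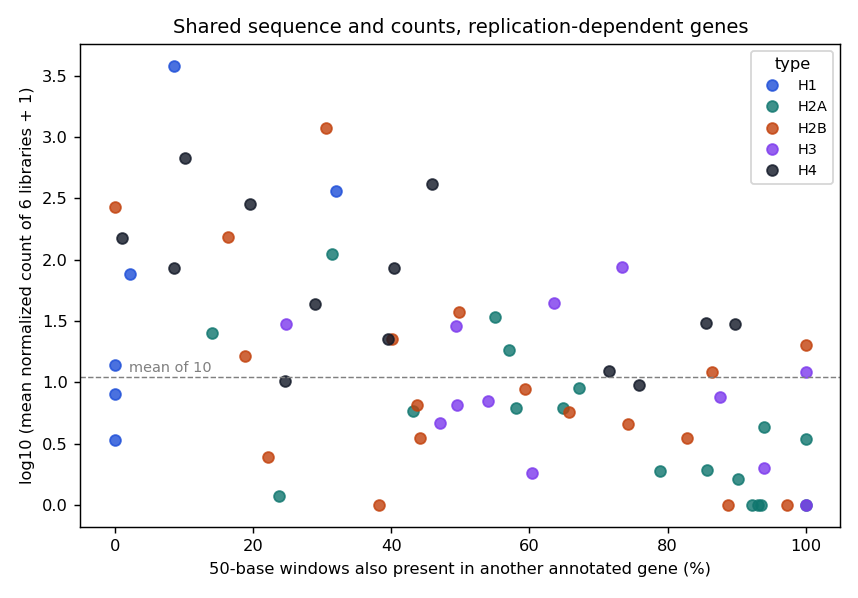
Share of 50-base windows that occur in another annotated gene (horizontal axis, percent) against log10 of the mean normalized count of the 6 libraries plus 1 (vertical axis) for the 67 replication-dependent genes, coloured by type, with the filter for testing at a mean of 10 as a dashed line. Genes without reads lie at 0 on the vertical axis, mostly at shares near 90 to 100%.

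The annotated transcripts differed between the classes in signals of the 3′ end. A hairpin of 16 bases, with a stem of 6 bases that starts with GG and a loop of 4 bases that starts with TT, was found in annotated transcripts of 44 of the 67 replication-dependent genes, in 1 of 6 variant genes (H2afx) and in 0.4845% of the 21878 other protein-coding genes. The search covered whole transcripts. Some genes without a match have short annotated transcripts, such as Hist1h4k with 312 bases and Hist1h2bn with 381. Their annotation may end before a hairpin, so no match need not mean that the gene lacks one. The signal AATAAA lay in the last 50 bases of any annotated transcript in 15 of 67 replication-dependent genes and in 5 of 6 variant genes. Among replication-dependent genes with a hairpin, its stem differed between H4 and the other types, and 2 H4 genes (Hist1h4b and Hist1h4j) had a stem of their own. H2afx, an H2A variant, had the stem most common in H4. The form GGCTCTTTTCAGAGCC was in 26 genes of H1, H2A, H2B and H3, and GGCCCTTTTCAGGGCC was in 7 genes, all of H4. Shown are the sites of the called genes that hold one and of H2afx, from GENCODE M21, with the hairpin in capitals and up to 5 bases on either side.
Hist1h4h: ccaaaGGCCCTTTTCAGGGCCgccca
Hist1h4c: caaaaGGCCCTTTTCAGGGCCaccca
Hist1h4m: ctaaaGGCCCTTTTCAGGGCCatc
Hist1h3e: aaaacGGCTCTTTTAAGAGCCacctc
Hist1h3d: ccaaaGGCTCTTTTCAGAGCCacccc
Hist2h3c2: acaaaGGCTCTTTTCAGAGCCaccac
Hist1h1c: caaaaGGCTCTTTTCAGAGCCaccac
H2afx: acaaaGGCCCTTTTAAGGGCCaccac
Hist1h3f, a near copy of Hist1h3e, had the same letters as Hist1h3e over all 26 bases. The hairpin lay within 46 bases of the annotated transcript end in Hist1h4h and 3 bases from it in Hist1h4m, but 840 bases before the end in Hist1h1c, 822 in H2afx, 752 in Hist1h3d, 454 in Hist1h4c, 377 in Hist2h3c2 and 369 in Hist1h3e, so that the annotation of these 6 genes also holds RNA past the usual processing site. No such hairpin was found in the annotated transcripts of Hist1h2bc and Hist2h2be, the H2B genes with the highest normalized counts.

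The promoters separated H4 from the other types. Promoters from RefSeq (GRCm38.p6, 250 bases before to 50 after the annotated start) were matched for 67 members, 62 of them replication-dependent, and 5 motifs were searched on both strands. The CCAAT box was in the promoters of all 6 H1, all 18 H2A, all 16 H2B and all 10 H3 genes matched, but in 3 of 12 H4 genes, against 37.41% of all 32851 promoters. The letters GGTCCG, chosen after these promoters had been looked at, were in 11 of 12 H4 promoters (all but that of Hist1h4a), in 1 of 16 H2B, 1 of 10 H3 and no H1 or H2A promoter, and in 8.252% of all promoters. TATAAA was in 35 of the 62 replication-dependent promoters and 13.62% of all promoters. The octamer ATTTGCAT was in 7 of 18 H2A and 6 of 16 H2B promoters and in none of H1, H3 and H4, against 1.735% of all, and AAACACA, the H1 box, was in 5 of 6 H1 promoters, against 7.184% of all. Shown are the promoters of 3 H4 genes that passed the threshold below, of which Hist1h4h and Hist1h4c were higher and Hist1h4m was lower in gene-trap cells, and of Hist1h1c as a promoter of another type, with every match of the 5 motifs or of its reverse complement in capitals.
Hist1h4h (chr13:23530794-23531093, plus strand): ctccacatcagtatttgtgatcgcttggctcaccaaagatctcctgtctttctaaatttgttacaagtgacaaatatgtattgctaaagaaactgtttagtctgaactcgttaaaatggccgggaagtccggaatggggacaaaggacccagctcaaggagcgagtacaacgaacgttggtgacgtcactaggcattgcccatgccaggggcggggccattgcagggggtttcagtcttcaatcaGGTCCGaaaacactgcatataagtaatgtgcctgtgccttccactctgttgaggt
Hist1h4c (chr13:23698409-23698708, minus strand): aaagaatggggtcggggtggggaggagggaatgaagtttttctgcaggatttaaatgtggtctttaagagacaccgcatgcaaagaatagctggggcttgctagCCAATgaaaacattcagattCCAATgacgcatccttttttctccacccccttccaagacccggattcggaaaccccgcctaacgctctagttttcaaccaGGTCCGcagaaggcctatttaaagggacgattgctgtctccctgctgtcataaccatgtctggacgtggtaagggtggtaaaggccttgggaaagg
Hist1h4m (chr13:21811496-21811795, plus strand): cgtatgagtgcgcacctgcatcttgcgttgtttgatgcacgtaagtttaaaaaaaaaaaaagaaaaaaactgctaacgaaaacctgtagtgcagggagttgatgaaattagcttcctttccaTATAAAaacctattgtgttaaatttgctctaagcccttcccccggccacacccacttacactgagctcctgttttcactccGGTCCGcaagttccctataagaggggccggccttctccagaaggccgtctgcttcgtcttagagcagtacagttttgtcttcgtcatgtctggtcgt
Hist1h1c (chr13:23738557-23738856, plus strand): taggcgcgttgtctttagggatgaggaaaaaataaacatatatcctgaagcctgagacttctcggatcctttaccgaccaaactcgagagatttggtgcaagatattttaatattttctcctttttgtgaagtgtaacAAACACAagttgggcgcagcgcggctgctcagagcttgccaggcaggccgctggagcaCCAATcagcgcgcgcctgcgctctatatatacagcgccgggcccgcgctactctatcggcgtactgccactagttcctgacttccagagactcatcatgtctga
GGTCCG lay at -46 to -41 from the start site in Hist1h4c, at -47 to -42 in Hist1h4m and at -5 to 1 in Hist1h4h, where these letters reach the annotated RefSeq start. Whether these letters or their place bear on the RNA of the 3 H4 genes was not tested. A match describes letters only.

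Between gene-trap and WT cells, histone genes moved in both directions. Of the 38 tested members, 3 were higher and 6 were lower in gene-trap cells and 29 did not pass the threshold (limma, adjusted p under 0.05). This is 23.7% of the members, against 10.7% of all 13867 genes tested, of which 4.56% were higher and 6.12% lower. The higher genes were Hist1h4h, Hist1h4c and Hist1h3e, and the lower genes were Hist2h3c2, Hist1h4m, Hist1h3d, Hist1h2bc, Hist1h1c and the variant H3f3a. Replication-dependent genes gave 3 higher and 5 lower of 32, and variant genes 0 higher and 1 lower of 6. The median log2 fold change (gene trap over WT) was -0.10 over the replication-dependent genes, with 15 above and 17 below 0, and 0.00 over the variant genes, against 0.00 over all genes tested. That median of -0.10 turned to 0.03 with a filter at a mean of 50 and to 0.01 without gene-trap library e. The range was wide, with -1.60 for Hist2h3c2 at the low end and 0.95 for Hist1h3f, which did not pass the threshold, at the high end. The groups did not overlap in 8 members that were higher and 9 that were lower in gene-trap cells, or 17 of 38, and the share over all genes tested was 31.9% (14.2% higher, 17.7% lower). With the 22 replication-dependent genes that shared under 50% of their windows, 2 were higher and 3 were lower, and with the 10 that shared 50% or more, 1 was higher and 2 were lower. With moderation by eBayes without a variance trend, 0 members were higher and 1 was lower (Hist2h3c2), where 76 and 70 genes of all tested were higher and lower.

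**Figure D2:**
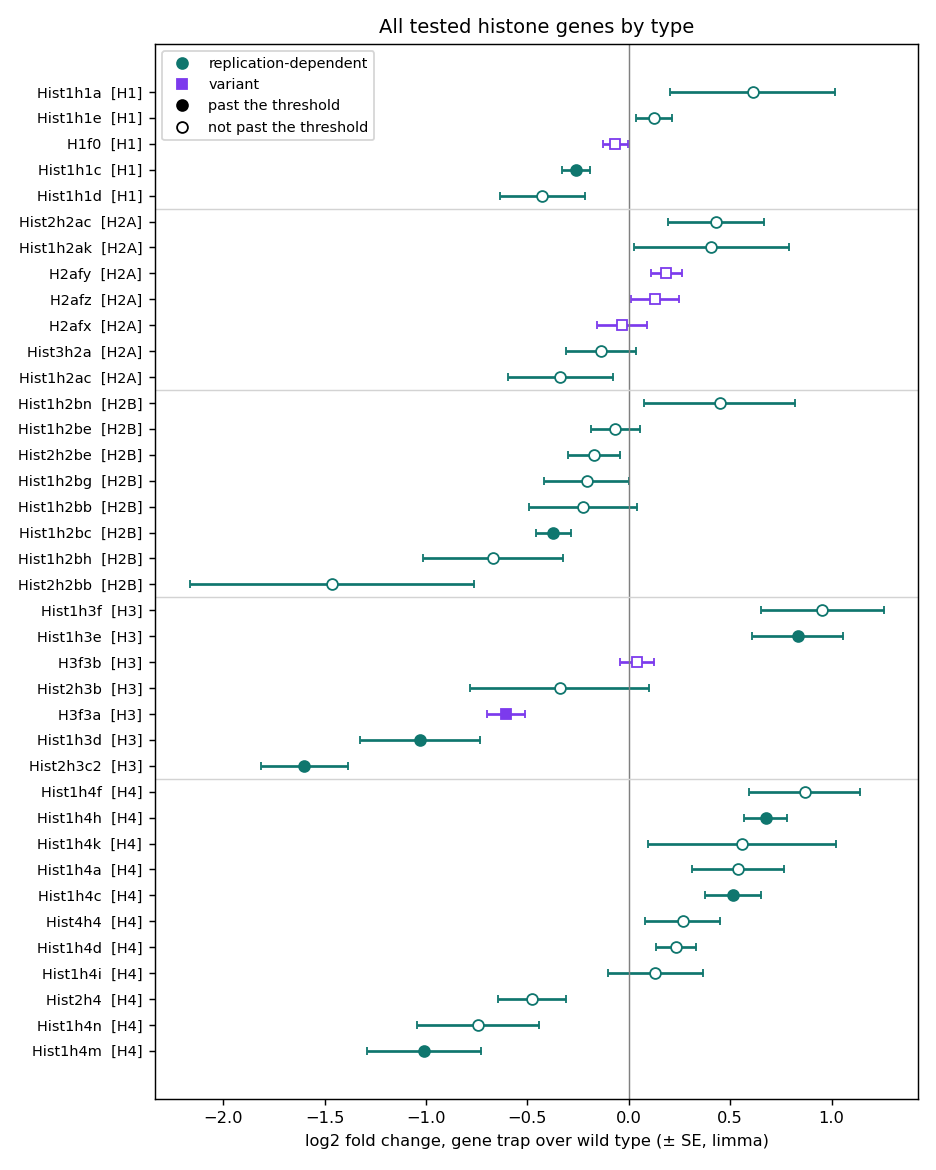
Log2 fold change of gene-trap over WT cells with its SE (horizontal axis, limma) for the 38 tested members, grouped by histone type (H1 at the top, H4 at the bottom) and sorted within it. Circles are replication-dependent and squares variant genes, and filled symbols passed the threshold. H4 genes lie on both sides of 0, with 8 of 11 above it, and 7 of 8 H2B genes lie below it.

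H4 was the type with most genes above 0. Of its 11 tested genes, 8 had a positive and 3 a negative fold change, with a median of 0.27, and 2 were higher and 1 lower past the threshold. An unadjusted p under 0.05 was found for 8 of the 11, of which 5 were higher and 3 lower, against 28.2% of all genes tested. All encode the same kind of core histone, which pairs with H3 in the first step of nucleosome assembly. Hist1h4h (chromosome 13, 23531050 to 23531519 on GRCm38, plus strand, 1 exon) had 482, 563 and 487 normalized counts in gene-trap libraries d, e and f, against 286, 324 and 351 in WT libraries e, f and g. All gene-trap values lay above all WT values and the highest was in library e. It was higher by 59.6% in the means (log2 fold change 0.67 ± 0.11, SE, adjusted p = 0.00275), and stayed past the threshold without any single library (0.60 to 0.74, adjusted p 0.00210 to 0.0182), but not with eBayes without a trend (adjusted p = 0.0546). Per kilobase of exon it was the H4 gene with the highest level in both strains, at 1087 ± 97.0 in gene-trap and 681 ± 69.5 in WT cells (SD, n = 3 each). Hist1h4c (chromosome 13, 23697635 to 23698454, minus strand, 1 exon) had 318, 356 and 329 normalized counts in gene-trap cells, against 192, 231 and 287 in WT cells. The groups did not overlap, and the gene was 1.41-fold higher (log2 0.51 ± 0.14, adjusted p = 0.0346). This call was lost without gene-trap d (log2 0.55, adjusted p = 0.0669) or f (0.52, 0.0568) and without WT e (0.37, 0.143) or f (0.51, 0.114), and with quantile normalization (0.47, 0.0550).

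Hist1h4m went the other way. It (chromosome 13, 21811746 to 21812147, plus strand, 1 exon) had 13.2, 18.7 and 25.2 normalized counts in gene-trap cells, against 35.4, 40.0 and 39.3 in WT cells, without overlap. It was lower by 50.1% in the means (log2 -1.01 ± 0.28, adjusted p = 0.0397). The call was lost without gene-trap d (-0.78, adjusted p = 0.125), WT e (-1.06, 0.117), WT f (-0.98, 0.137) or WT g (-0.99, 0.104), with DESeq2 (-1.03, 0.101), with upper-quartile scaling (-0.99, 0.0502) and with a replicate block on the shared letters (-0.76, 0.199). Hist1h4m shares 89.8% of its windows, most with Hist1h4n, which had 29.1, 14.1 and 24.1 normalized counts in gene-trap cells, against 35.4, 45.0 and 30.8 in WT cells (log2 -0.74 ± 0.30, adjusted p = 0.131). Reads of the pair cannot be told apart in the shared stretches. The H4 gene with the highest normalized count, Hist1h4d, had 626, 751 and 822 in gene-trap cells, against 595, 626 and 637 in WT cells. The lowest gene-trap value lay within the WT values, and it did not pass the threshold (log2 0.23 ± 0.10, adjusted p = 0.148). The other 6 H4 genes did not pass either, with fold changes from -0.48 for Hist2h4 to 0.87 for Hist1h4f, whose groups did not overlap (29.1, 23.4 and 32.1 in gene-trap cells, against 14.9, 13.7 and 16.2 in WT cells, adjusted p = 0.0643).

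The replication-dependent H3 genes were split. Past the threshold were Hist1h3e, higher, and Hist2h3c2 and Hist1h3d, lower, of 5 tested. Hist2h3c2 (chromosome 3, 96238108 to 96239127, minus strand, 1 exon) had 18.5, 23.4 and 20.7 normalized counts in gene-trap cells, against 68.6, 67.4 and 59.4 in WT cells. The groups were far apart relative to their spread, and the level was lower by 68.0% in the means (log2 -1.60 ± 0.22, adjusted p = 0.00115). It was the member that kept its call in all 18 alternatives that gave it a value, with fold changes from -1.68 to -1.34. It shares 63.5% of its windows, first of all with Hist2h3c1, which lies in the same cluster and had no reads. Hist1h3e (chromosome 13, 23561534 to 23562369, minus strand, 1 exon) had 111, 131 and 90.6 normalized counts in gene-trap cells, against 65.1, 43.7 and 80.2 in WT cells. The groups did not overlap, and the gene was 1.76-fold higher (log2 0.83 ± 0.23, adjusted p = 0.0369). The call was lost without gene-trap d (0.82, adjusted p = 0.0910) or e (0.71, 0.0570), without WT e (0.88, 0.107) or f (0.60, 0.136), and with quantile normalization (0.76, 0.0721). It shares 73.4% of its windows, most with Hist1h3f, whose 31.8, 37.5 and 39.0 normalized counts in gene-trap cells also lay above the 12.6, 27.5 and 17.0 in WT cells. Hist1h3f did not pass the threshold (log2 0.95 ± 0.30, adjusted p = 0.0644).

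Hist1h3d (chromosome 13, 23575763 to 23577011, plus strand, 1 exon), which lies between those 2 genes and Hist1h4d in the same cluster, had 17.9, 14.1 and 24.1 normalized counts in gene-trap cells, against 51.4, 36.2 and 30.1 in WT cells. The groups did not overlap, and it was lower by 52.4% in the means (log2 -1.03 ± 0.30, adjusted p = 0.0448). It was the least stable of the calls. It was lost without gene-trap d (-1.01, adjusted p = 0.102) or e (-0.85, 0.0676) and without WT e (-0.82, 0.200), f (-1.07, 0.125) or g (-1.20, 0.0580), and with edgeR (-1.04, 0.0508), DESeq2 (-1.07, 0.0947), upper-quartile scaling (-1.01, 0.0566) and the replicate block (-1.18, 0.0628). The remaining H3 gene, Hist2h3b, shares all of its windows with other annotated genes and had a fold change of -0.34 ± 0.44 (log2, adjusted p = 0.660).

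Among H2B genes, which encode the partner of H2A in the nucleosome, 7 of 8 had a negative fold change, with a median of -0.22, and 1 was lower past the threshold. Hist1h2bc (chromosome 13, 23684199 to 23692908, plus strand, 2 exons) had 980, 1063 and 1045 normalized counts in gene-trap cells, against 1459, 1364 and 1186 in WT cells. The gene-trap values lay close together and below all WT values, and the gene was lower by 23.0% in the means (log2 -0.37 ± 0.08, adjusted p = 0.0189). Without gene-trap d (-0.34, adjusted p = 0.0728), WT e (-0.31, 0.0993) or WT f (-0.36, 0.0878) the call was lost. Hist2h2be, the H2B gene with the next highest count and no shared window, had 238, 304 and 223 normalized counts in gene-trap cells, against 314, 265 and 278 in WT cells. Those groups overlapped (log2 -0.17 ± 0.13, adjusted p = 0.417). Hist2h2bb had the lowest fold change of the genes that did not pass (-1.46 ± 0.70, adjusted p = 0.195), with 13.9, 1.17 and 22.9 in gene-trap cells, against 35.4, 17.5 and 23.1 in WT cells. It is wholly overlapped by the predicted genes Gm20628 and Gm42743, and its value in gene-trap library e is 1 read. The other 5 H2B genes had fold changes from -0.67 for Hist1h2bh to 0.45 for Hist1h2bn.

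Of the 4 replication-dependent linker histone genes, 1 passed the threshold. Hist1h1c (chromosome 13, 23738808 to 23740367, plus strand, 1 exon), the replication-dependent gene with the highest level, had 3521, 3218 and 3675 normalized counts in gene-trap cells, against 4341, 3971 and 4171 in WT cells. The groups did not overlap, and it was lower by 16.6% in the means (log2 -0.26 ± 0.07, adjusted p = 0.0334). The call was lost without gene-trap d (-0.27, adjusted p = 0.0882), WT e (-0.23, 0.144), WT f (-0.30, 0.0817) or WT g (-0.26, 0.0771), with upper-quartile scaling (-0.24, 0.0531), with quantile normalization (-0.20, 0.102) and with the replicate block (-0.27, 0.0687). Per kilobase it stood at 2225 ± 149 in gene-trap cells and 2667 ± 119 in WT cells (SD, n = 3 each), the highest of all members in both strains. Hist1h1e, another linker histone gene, had 375, 374 and 391 normalized counts in gene-trap cells, against 342, 366 and 338 in WT cells. Its groups did not overlap in the opposite direction, and the difference did not pass (log2 0.12 ± 0.09, adjusted p = 0.391). Hist1h1e overlaps Hist1h2be on the same strand over part of its exon. Hist1h1d and Hist1h1a had fold changes of -0.43 and 0.61 (log2, adjusted p = 0.209 and 0.354).

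No H2A gene passed the threshold, variant or not. Of the 7 tested, none was called by limma, edgeR or DESeq2, and 1, the variant H2afy, had an unadjusted limma p under 0.05. The limma shares over all genes tested were 10.7% past the threshold and 28.2% with an unadjusted p under 0.05. With 7 genes, the absence of a call does not set H2A apart from these shares. Hist3h2a, the replication-dependent H2A gene with the highest count, had 91.9, 103 and 120 normalized counts in gene-trap cells, against 105, 144 and 101 in WT cells. The groups overlapped (log2 -0.14 ± 0.17, adjusted p = 0.649, 95% confidence interval -0.51 to 0.24), and the sign turned without WT f (0.02). The other 3, Hist1h2ac, Hist1h2ak and Hist2h2ac, had fold changes from -0.34 to 0.43. Only 4 of 18 replication-dependent H2A genes could be tested, and their summed level was between 193 and 228 normalized counts in gene-trap libraries and between 197 and 241 in WT libraries.

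**Figure D3:**
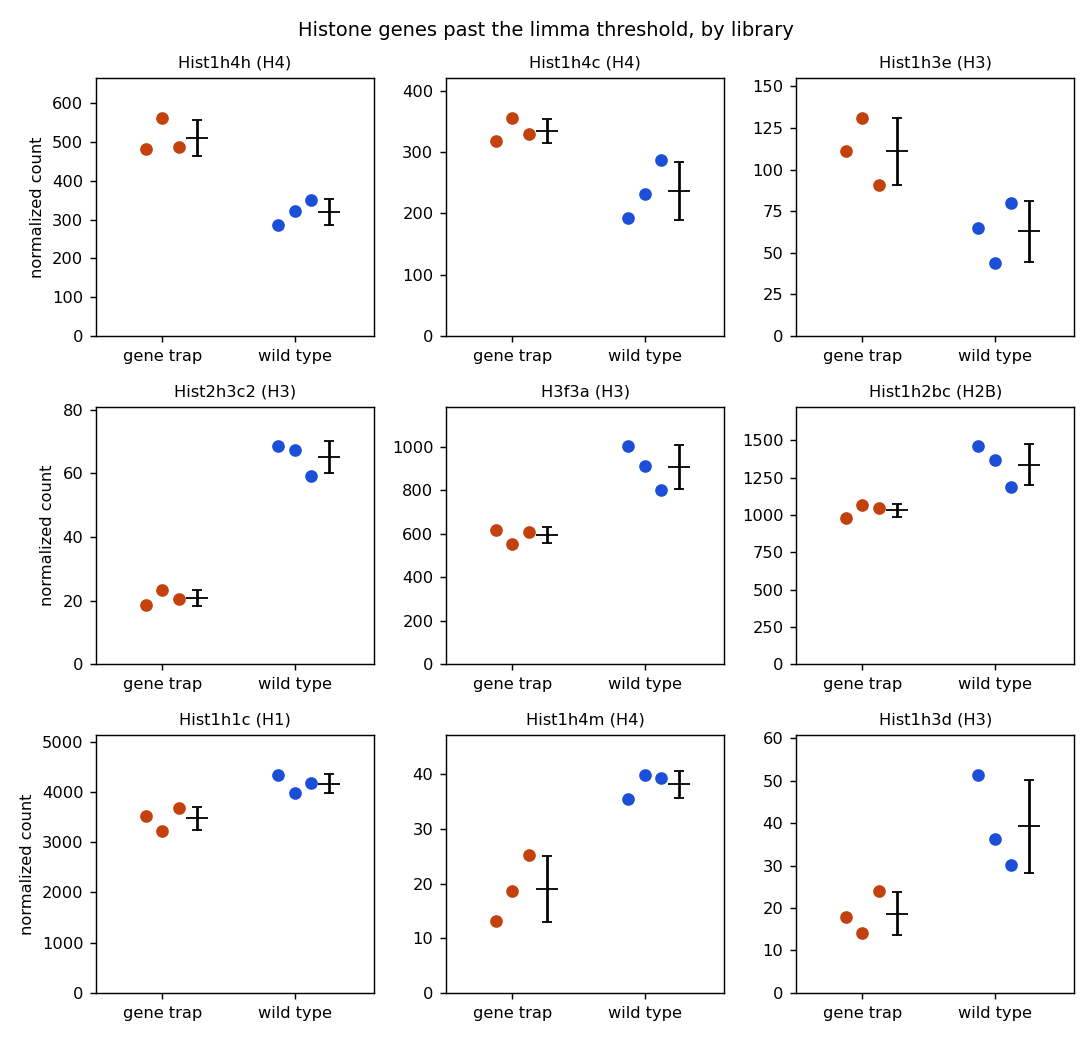
Normalized count of each library (vertical axis, starting at 0) for the 9 members past the threshold, gene-trap libraries d, e and f on the left and WT libraries e, f and g on the right of each panel, with the mean and SD beside the points (n = 3 each). In all 9 panels the points of the 2 strains do not overlap; the gap is widest relative to the spread for Hist2h3c2.

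Among the variant genes, H3f3a was lower in gene-trap cells and its companion H3f3b, which encodes the same replacement H3 protein, did not pass the threshold. H3f3a (chromosome 1, 180800832 to 180813943, minus strand, 6 exon blocks over its 7 transcripts) had 619, 552 and 609 normalized counts in gene-trap cells, against 1002, 912 and 800 in WT cells. The groups did not overlap, and the gene was lower by 34.4% in the means (log2 -0.60 ± 0.09, adjusted p = 0.00273). The call held without any single library (-0.69 to -0.53, adjusted p 0.00169 to 0.0228) and was lost with eBayes without a trend (adjusted p = 0.0630). Its exons are overlapped over 22.8% of their length by genes on the other strand, among them H3f3aos, which had 20.6 ± 3.74 normalized counts in gene-trap cells and 36.7 ± 3.90 in WT cells (SD, n = 3 each; log2 -0.82, adjusted p = 0.0578), and since the strand setting of the counting is not stated, reads of the 2 genes cannot be separated here. H3f3b (chromosome 11, 116021912 to 116027962, minus strand) had 4560, 3667 and 4575 normalized counts in gene-trap cells, against 4088, 4252 and 4041 in WT cells. Its groups overlapped, with gene-trap library e the lowest and the other 2 gene-trap libraries the highest (log2 0.04 ± 0.08, adjusted p = 0.792, 95% confidence interval -0.14 to 0.22). Per kilobase, H3f3b stood at 1434 ± 175 in gene-trap and 1387 ± 37.2 in WT cells, and H3f3a at 169 ± 10.4 in gene-trap and 258 ± 28.9 in WT cells (SD, n = 3 each), so that H3f3a was the lower of the pair in both strains.

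The other 4 variant genes did not pass the threshold. H2afy (chromosome 13, 56073619 to 56136361, minus strand), which encodes macroH2A, a variant with a large extra domain found on silent chromatin, had 611, 605 and 637 normalized counts in gene-trap cells, against 545, 541 and 544 in WT cells. All gene-trap values lay above all WT values, but the difference did not pass (log2 0.18 ± 0.08, adjusted p = 0.138, 95% confidence interval 0.02 to 0.35 before adjustment). H2afz (chromosome 3, 137864487 to 137866922, plus strand), the gene of the variant H2A.Z found around active promoters, had 285, 249 and 226 in gene-trap cells, against 229, 219 and 246 in WT cells, with overlap (log2 0.13 ± 0.12, adjusted p = 0.506). H2afx (chromosome 9, 44334694 to 44336077, plus strand), whose protein is phosphorylated at DNA breaks and whose transcript carries the stem-loop shown above, had 167, 160 and 171 normalized counts in gene-trap cells, against 182, 152 and 178 in WT cells. Those groups overlapped as well (log2 -0.03 ± 0.12, adjusted p = 0.886, 95% confidence interval -0.30 to 0.23). H1f0 (chromosome 15, 79028450 to 79030504, plus strand), the linker histone of cells that have left the cell cycle, had 2242, 2275 and 2211 normalized counts in gene-trap cells, against 2452, 2316 and 2287 in WT cells. Every gene-trap value was lower than every WT value, and the difference did not pass (log2 -0.07 ± 0.06, adjusted p = 0.513, 95% confidence interval -0.20 to 0.07).

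Summed over each type, these single-gene differences left the types in different places; the sums are descriptions without a test. Replication-dependent H4 genes together had 1913, 2076 and 2137 normalized counts in gene-trap libraries d, e and f, against 1509, 1624 and 1834 in WT libraries e, f and g, so that every gene-trap sum was above every WT sum. The H2B sums were 1483, 1623 and 1555 in gene-trap cells, against 2081, 1921 and 1762 in WT cells, and the H1 sums were 3984, 3655 and 4183 in gene-trap cells, against 4785, 4452 and 4612 in WT cells. In both of these types every gene-trap sum was below every WT sum on this scale, though not when scaled to the total reads of each library. Most of the H1 sum was Hist1h1c and most of the H2B sum Hist1h2bc, the genes of these types that were lower past the threshold. These 2 sums need not describe the other genes of their types. The H2A sums overlapped between strains, at 193 to 228 in gene-trap cells and 197 to 241 in WT cells. The H3 sums also overlapped, at 210.0 to 230 in gene-trap cells and 212 to 225 in WT cells, with Hist1h3e higher and Hist2h3c2 and Hist1h3d lower past the threshold. All replication-dependent genes together had 7834, 7774 and 8312 normalized counts in gene-trap cells, against 8796, 8450 and 8651 in WT cells, again lower without overlap on this scale. Hist1h1c is the largest part of this sum, and its own means were 3471 in gene-trap and 4161 in WT cells. The sum need not describe the other genes. The variant genes together had 8484, 7509 and 8429 in gene-trap cells, against 8497, 8391 and 8096 in WT cells, with overlap.

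**Figure D4:**
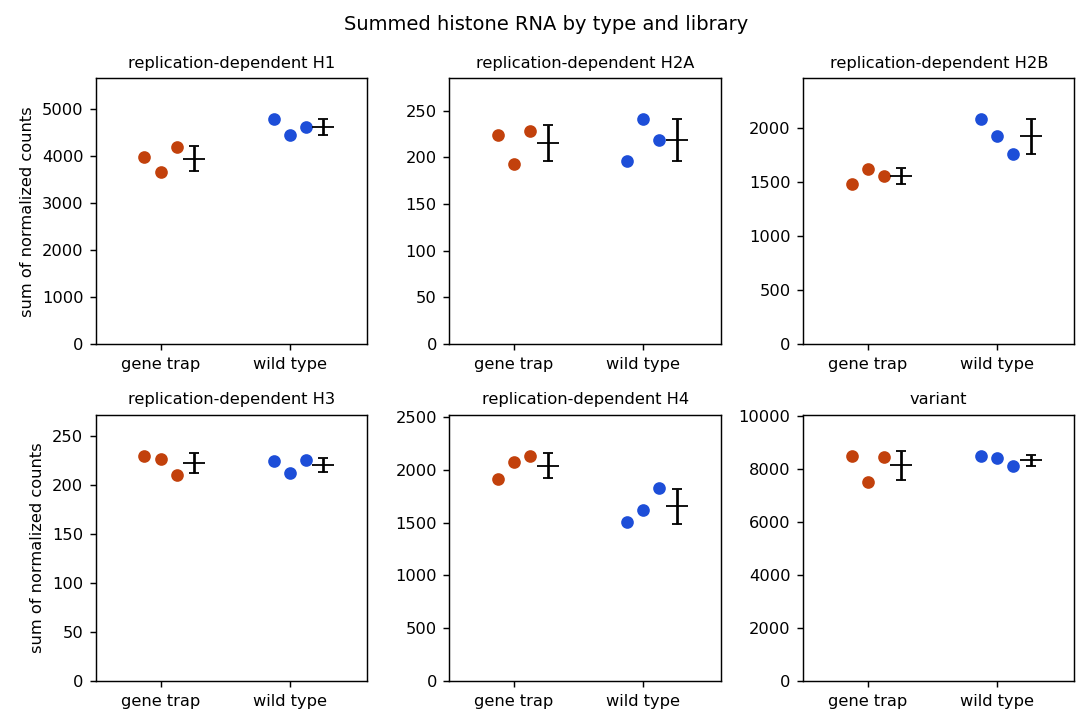
Sum of normalized counts per library (vertical axis, starting at 0) over the replication-dependent genes of each type and over the 6 variant genes, gene-trap libraries on the left and WT libraries on the right, with mean and SD (n = 3 each). The H4 sums of gene-trap cells lie above those of WT cells and the H1 and H2B sums below on this scale. H1 and H2B, which are mostly Hist1h1c and Hist1h2bc, overlap when scaled to the total reads of each library. H2A, H3 and variant sums overlap.

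The directions of H1, H2B and all replication-dependent genes together depend on the scale. With reads scaled to the total of each library (RPM), mitochondrial reads included, the median of all genes tested was 0.27 higher in gene-trap cells on the log2 scale. On that scale the H4 sums were 59.8, 57.7 and 65.8 RPM in gene-trap cells, against 34.6, 40.1 and 49.5 in WT cells, and still did not overlap. The H2B sums were 46.3, 45.1 and 47.9 in gene-trap cells, against 47.7, 47.5 and 47.6 in WT cells, and the H1 sums were 125, 102 and 129 in gene-trap cells, against 110.0, 110.0 and 125 in WT cells, both with overlap. All replication-dependent genes together had 245, 216 and 256 RPM in gene-trap cells, against 202, 209 and 234 in WT cells, so that on this scale the gene-trap values were the higher ones on the whole, with overlap. As a share of all histone reads, which no scaling of the library can change, H4 had 11.7, 13.6 and 12.8% in gene-trap cells, against 8.72, 9.64 and 11.0% in WT cells. The closest libraries were gene-trap d and WT g, whose Wilson 95% intervals of 11.3 to 12.1% for gene-trap d and 10.5 to 11.4% for WT g overlapped; the intervals cover counting error only. H1 had 24.4, 23.9 and 25.0% in gene-trap cells, against 27.7, 26.4 and 27.5% in WT cells, without overlap, while the H2B share overlapped, at 9.09 to 10.6% in gene-trap and 10.5 to 12.0% in WT cells. Most of these H1 reads came from Hist1h1c. Fold changes of Hist1h1e and Hist1h1a were positive and that of Hist1h1d was negative (log2 0.12, 0.61 and -0.43). Replication-dependent genes as a whole took 48.0, 50.9 and 49.7% of histone reads in gene-trap cells, against 50.9, 50.2 and 51.7% in WT cells, with overlap, so that the balance between replication-dependent and variant genes did not separate the strains.

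The genes that control histone RNA and histone deposition showed no member past the threshold, which 10.7% of all genes tested passed. An unadjusted limma p under 0.05 was found for 28.2% of all genes tested. Of 19 genes for histone mRNA processing and control, among them Slbp and Npat, none was called by limma, edgeR or DESeq2, and 1 had an unadjusted limma p under 0.05. That gene was Npat, which activates the replication-dependent promoters, at 354 ± 15.4 normalized counts in gene-trap cells and 415 ± 28.2 in WT cells (SD, n = 3 each; log2 -0.23 ± 0.09, adjusted p = 0.137). Of 22 histone chaperone genes, none was called by any of the 3 tools and 4 had an unadjusted p under 0.05, with Set at 2408 ± 71.8 in gene-trap and 2800 ± 300.3 in WT cells (SD, n = 3 each) having the smallest adjusted p (0.101). Of 5 other variant genes that could be tested (H2afy2, Cenpa, H1fx, H2afv and H2afj), none was called by the 3 tools and none had an unadjusted p under 0.05.

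Genes of S phase and mitosis, the time at which replication-dependent histones are made in dividing cells, were low but present. Of 18 tested of 22 listed, 1 was higher and 0 were lower in gene-trap cells, or 5.56%, against 10.7% of all genes tested, and 7 had an unadjusted p under 0.05 (6 higher, 1 lower), against 28.2% of all genes tested; edgeR called 2 higher and DESeq2 called 0. Mcm4, a subunit of the replicative helicase, was at 252 ± 12.1 normalized counts in gene-trap cells and 192 ± 15.7 in WT cells (SD, n = 3 each; log2 0.40 ± 0.11, adjusted p = 0.0411). Next by adjusted p were Top2a at 38.6 ± 10.3 in gene-trap cells and 19.4 ± 2.67 in WT cells (0.0522), Ccna2 at 21.4 ± 1.66 in gene-trap cells and 9.29 ± 4.17 in WT cells (0.0642), and Ccne2 at 50.1 ± 6.90 in gene-trap cells and 77.7 ± 15.1 in WT cells (0.0676). Per library, the median of this list relative to the WT mean was 0.28, 0.04 and 0.29 (log2) in gene-trap libraries d, e and f, against -0.11, 0.07 and 0.06 in WT libraries e, f and g. On the same scale, the median of the H4 genes was 0.28, 0.15 and 0.41 in the gene-trap libraries. In the WT libraries that median was -0.11, -0.01 and 0.14. Single tested H4 and replication-dependent H3 genes varied in the place of library e. It was the highest gene-trap library in Hist1h4h, Hist1h4c, Hist4h4, Hist1h3e and Hist2h3c2. In Hist1h4a, Hist1h4f, Hist1h4i, Hist1h4k, Hist1h4n, Hist2h4, Hist1h3d and Hist2h3b it was the lowest, and in Hist1h4d, Hist1h4m and Hist1h3f it lay between the others. What part cell division in the other cells of the preparations had in the histone values was not tested.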

How the data were processed

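RNA-seq was analysed from 3 gene-trap and 3 WT libraries of cardiomyocytes taken after 4 h in culture. Per the submitters' processing notes and the methods of the study, base calls came from CASAVA 1.4, single reads of 50 bases were aligned to GRCm38 with STAR 2.5.1b, counted per Ensembl gene with featureCounts 1.6.0 and compared with DESeq2 1.22.2. Settings for strand and for reads that fit several genes were not given in the sources used here. A gene's deposited signal is its count after division by the library's size factor, as made by the authors, and is called a normalized count here. In every library 100% of values were whole multiples (tolerance 0.001) of the smallest value above 0, so whole reads were recovered. The deposited table also holds the authors' own comparison as log2 fold changes with errors, a Wald score, p-values and a mean signal over all libraries; none of these was used. The 123 rows without a gene name (0.00343% of reads) were left out.

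Normalized counts were compared with limma 3.58.1 in R 4.3.3 (lmFit, eBayes with a variance trend) on log2(normalized count + 1), a scale that understates the change of low genes, for the 13867 genes with a mean of 10 or higher. Every adjusted p is two-sided, from limma unless another tool is named, and adjusted by Benjamini and Hochberg over all genes tested; the threshold was 0.05. "Higher" and "lower" with "past the threshold" refer to that test. The scripts were tested on simulated data. Pairs of libraries of a strain differed beyond counting error (chi-square over its degrees of freedom 9.19 to 44.6), so each counted as 1 replicate. As the libraries came from separate isolations, p-values measure the spread between isolations.

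Shared windows, hairpins and coordinates came from GENCODE M21 on GRCm38, promoters from RefSeq; the other genes described were 4 lists of histone control, chaperone, other variant and S-phase genes and 7 lists of markers of cell types. The members and lists were chosen with earlier results of these data known. Named with full values were the 6 variant genes, each replication-dependent gene past the threshold, and of those not past it the highest of each type and the largest change in each direction; Hist1h4f and Hist1h4n were added after their values were seen, and from the lists up to 4 genes with the smallest adjusted p. Alternatives were edgeR 4.0.16 and DESeq2 1.42.0 on whole reads (730 and 602 genes higher, 811 and 865 lower), other pseudocounts, filters, scalings, moderation, thresholds, a replicate block and leaving out each library.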

Additional observations from a re-analysis of the deposited data

How the results depend on the processing

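Over all genes tested, 632 were higher and 849 lower in gene-trap cells; without a filter 1004 were higher, with eBayes without a trend 76 were higher and 70 lower, and at a threshold of 0.01 these were 137 and 229. Leaving out each library gave 164 to 1000 higher and 232 to 1230 lower. For all histone members (3 higher, 6 lower), the higher count was 1 with quantile normalization or a threshold of 0.01 and 0 with eBayes without a trend; the lower count was 3 with a filter at a mean of 50, with upper-quartile scaling and with the replicate block, 2 at a threshold of 0.01 and 1 without a trend. Leaving out each library gave 1 to 4 higher and 2 to 6 lower. For replication-dependent genes (3 higher, 5 lower), the higher count was 1 with quantile normalization or a threshold of 0.01 and 0 without a trend; the lower count was 3 with DESeq2, 2 with a filter at a mean of 50, upper-quartile scaling or the replicate block, 1 without a trend or at 0.01, and 3 when only genes with under 50% of their windows shared were kept, an alternative chosen after seeing the data. Leaving out each library gave 1 to 4 higher and 1 to 5 lower. For variant genes the lower count of 1 was 0 without a trend and 1 without each library. The cause of these shifts was not tested, except that the filter at a mean of 50 leaves out Hist1h4m and Hist1h3d by their level, and Hist2h3c2 likewise.

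The sign turned for 3 genes near 0: H3f3b had -0.026 with the replicate block and -0.013 to 0.15 when libraries were left out, H2afx -0.11 to 0.013 and Hist3h2a -0.24 to 0.020. The median of replication-dependent genes (-0.10) was -0.05 with a filter at a mean of 1, 0.03 at 50, -0.03 without a filter, -0.15 with quantile normalization, 0.01 without gene-trap e and -0.04 without WT f. The block rests on the 2 letters that the strains share. Same-letter libraries deviated together weakly (r = 0.11 for e and 0.15 for f, across genes), too few pairs to treat the letters as a pairing; with the block 634 genes were higher and 744 lower. Depth limits the low genes, such as Hist1h4m with 13.2 to 25.2 normalized counts in gene-trap libraries, and 35 of 67 replication-dependent genes were too low to be tested.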
